A study of Danio rerio with 8 samples.

Results

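The genes described here, 7 by symbol, belong to the contractile apparatus of smooth muscle and myofibroblasts, and every Affymetrix zebrafish probe set whose platform annotation gave that symbol was followed. Of the 7 genes, 5 were on the array, with 6 probe sets: tagln, tagln2, acta2 and smtnb had a single probe set each and mylka had a pair. No probe set carried the symbol myh11a or cald1a, so these 2 genes are not analysed here. In all, the array gave values for 15502 probe sets and 8793 named genes. The samples were 4 pools of Danio rerio heart ventricles with a resection and 4 pools of control ventricles. Every pool, resected or control, held 50 ventricles and was taken 2 weeks after surgery. Strain, age and the operation given to the control animals are not given in the sources used here, and neither is how the resection was done. The comparison addresses what injury does to gene expression in the heart of a fish that can regrow lost heart muscle.

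Smooth muscle cells contract when calcium and calmodulin activate myosin light chain kinase, which phosphorylates the regulatory light chain of myosin and lets it pull on actin filaments. Smooth muscle actin, transgelin, smoothelin, caldesmon and smooth muscle myosin heavy chain make up or regulate this machinery. In mammals several of their genes are switched on by serum response factor (SRF) and its coactivators, and fibroblasts that gain smooth muscle actin and transgelin after injury are called myofibroblasts. In the heart the same genes mark the smooth muscle of coronary vessels and the outflow tract. Roles given below are those known from mammals unless zebrafish is named.

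Expression is given as log2 values from RMA. A change is the mean over resected arrays less that over control arrays, in log2 units (n = 4 each), with its standard error (SE) from limma. A change was called at an adjusted p of 0.05 (limma, two-sided, Benjamini-Hochberg over all 15502 probe sets). Array medians lay between 5.78 and 5.82, and the median change over all probe sets was -0.05. A probe set's level is not comparable with that of another probe set, so levels are compared only between groups. The regulatory myosin light chain of the zebrafish heart, myl7, was at 13.91 to 14.07 in resected and 13.95 to 14.14 in control arrays. With no other tissue measured, these values do not test the labelled tissue. Control replicate 2 stood apart in macrophage markers, where its mean over 8 genes, relative to the average of the controls, was 0.86. The other control arrays had -0.42 to -0.15. In whole ventricles, more cells of a type and more RNA per cell cannot be told apart.

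In resected ventricles 3 of the 5 measured genes rose and 0 fell (limma, also 3 and 0 at an unadjusted p under 0.05). The count higher stayed at 3 without control replicate 1, 2 or 3 and was 2 without control replicate 4 or any single resected array, each time with 0 lower. The increases were in tagln, 3.68-fold, tagln2, 1.56-fold, and mylka, 1.29-fold, while acta2 and smtnb did not pass the test. Over the whole array 5.05% of genes were called higher and 3% were called lower. The members were chosen with earlier results of these data known, so their count is only a description. The median change of the 5 genes was 0.37, against -0.04 over all 8793 genes. All 4 resected values lay above all 4 control values for the same 3 genes, which was true of 7.74% of all genes.

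**Figure D1:**
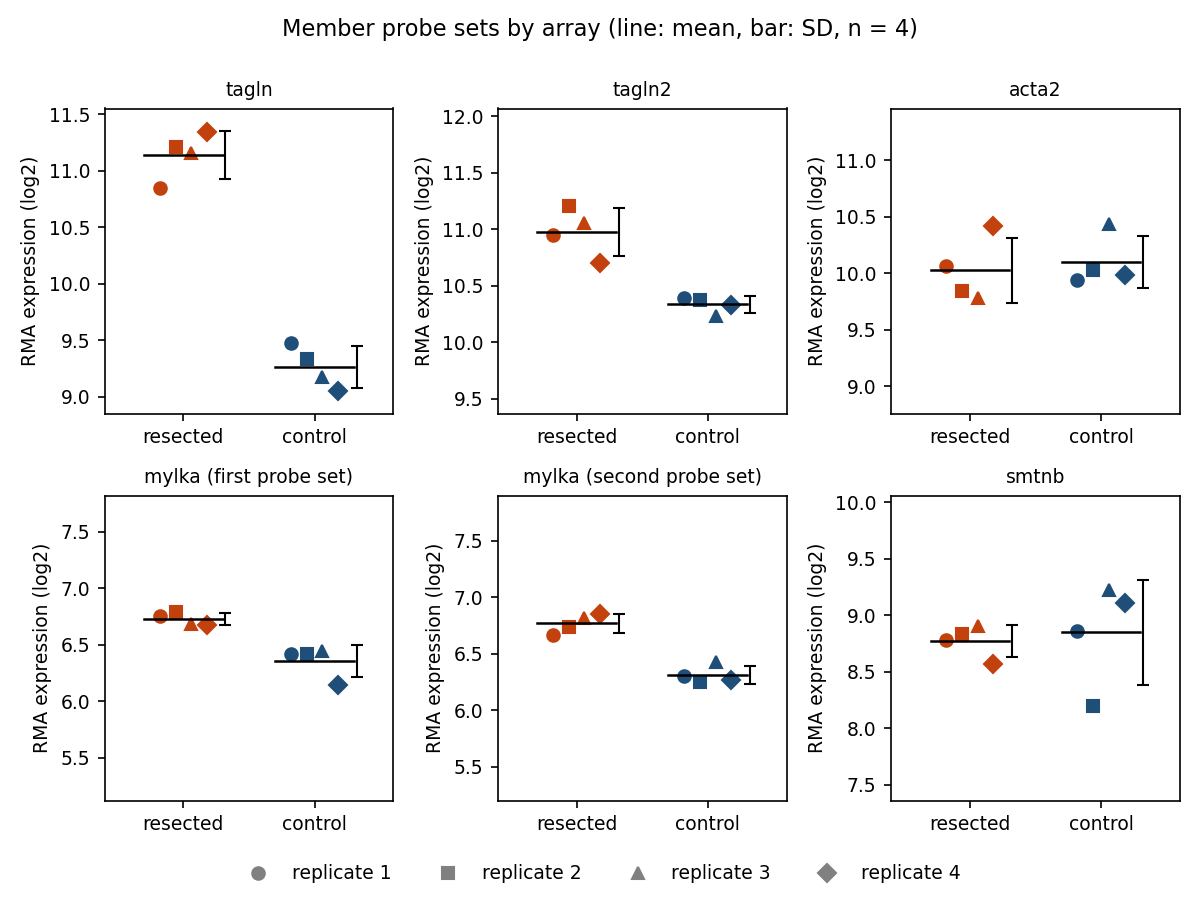
RMA expression (log2) of the 6 probe sets in each of 4 resected and 4 control arrays, drawn with the same span on each vertical axis. Marker shapes give the replicate, lines the group means and bars the SD. The groups stand apart for tagln, tagln2 and both mylka probe sets, and overlap for acta2 and smtnb.

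The actin-binding proteins of the transgelin family came first in size. Transgelin, the product of tagln, is a small calponin-related protein that binds actin filaments and is an early marker of smooth muscle (Entrez gene 751758). Its expression was 10.85, 11.21, 11.16 and 11.35 in resected replicates 1 to 4, against 9.48, 9.34, 9.18 and 9.06 in control replicates 1 to 4. The lowest resected array lay 1.37 above the highest control array. The means were 11.14 ± 0.21 in resected and 9.26 ± 0.18 in control ventricles (SD, n = 4 each). The change was 1.88 ± 0.13 (SE), a 3.68-fold increase with a 95% interval of 3.03 to 4.46 (adjusted p = 1.87e-05, limma). In size, tagln stood at place 40 among the 15502 probe sets ordered from the largest increase down. Leaving out each array in turn, the change stayed between 1.81 and 1.98.

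Transgelin 2, the product of tagln2, is a relative of transgelin that is found in many cell types besides smooth muscle (Entrez gene 259183). It was at 10.95, 11.20, 11.05 and 10.70 in resected replicates 1 to 4, against 10.39, 10.38, 10.23 and 10.33 in control replicates 1 to 4. The groups did not overlap, and the gap between them was 0.30. The resected pools were more spread out, with means of 10.98 ± 0.21 in resected and 10.33 ± 0.07 in control ventricles (SD, n = 4 each). The change was 0.64 ± 0.11, a 1.56-fold increase with a 95% interval of 1.32 to 1.85 (adjusted p = 0.00648, limma). It stood at place 486 in the same order. The call held when each array was left out in turn, with an adjusted p of 0.00297 to 0.0266 (limma).

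Smooth muscle actin, the product of acta2, forms the thin filaments of smooth muscle and is the marker most used to define myofibroblasts (Entrez gene 322509). Its expression was 10.06, 9.84, 9.78 and 10.41 in resected replicates 1 to 4, against 9.94, 10.03, 10.44 and 9.98 in control replicates 1 to 4. Resected replicate 4 and control replicate 3 were the highest of their groups, and the other 6 arrays lay between 9.78 and 10.06. The change was -0.07 ± 0.15 (adjusted p = 0.81, limma). Its 95% interval of -0.42 to 0.27 corresponds to 0.749-fold to 1.21-fold, so an increase of the size seen in tagln or tagln2 lies outside it. The sign of the acta2 value was not fixed: without resected replicate 3 it was 0.0097, and without control replicate 3 it was 0.040. Array probes can bind close relatives, and actins are highly alike, so the copy measured by this probe set is uncertain.

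Myosin light chain kinase, the product of mylka, starts contraction by phosphorylating the regulatory light chain. The first of the pair of probe sets for this gene (Entrez gene 569510) had the higher mean and represents the gene in the counts. By its name it is of the type whose probes match several similar transcripts. It was at 6.76, 6.79, 6.68 and 6.68 in resected replicates 1 to 4, against 6.42, 6.42, 6.45 and 6.15 in control replicates 1 to 4. The groups did not overlap, and control replicate 4 lay below the other control arrays. The change was 0.37 ± 0.09, a 1.29-fold increase with a 95% interval of 1.13 to 1.48 (adjusted p = 0.0333, limma). This call was lost when control replicate 4 or any single resected array was left out, with an adjusted p of 0.0549 to 0.101 (limma).

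The second mylka probe set was at 6.66, 6.74, 6.82 and 6.85 in resected replicates 1 to 4, against 6.30, 6.24, 6.43 and 6.26 in control replicates 1 to 4. Its groups were also apart, by 0.24, and no control array stood off from the others. The change was 0.46 ± 0.08, a 1.37-fold increase (adjusted p = 0.00816, limma), and the call held without any single array (adjusted p of 0.0105 to 0.0333, limma). The changes of the pair of probe sets differed by -0.09, first minus second (exact two-sided permutation test, p = 0.371).

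Smoothelin, a cytoskeletal protein of contractile smooth muscle cells, is encoded by smtnb among others (Entrez gene 664685). Its expression was 8.78, 8.83, 8.90 and 8.57 in resected replicates 1 to 4, against 8.86, 8.19, 9.23 and 9.11 in control replicates 1 to 4. The resected values all lay inside the range of the control values, in which control replicate 2 was the lowest. The means were 8.77 ± 0.14 in resected and 8.85 ± 0.46 in control ventricles (SD, n = 4 each). The change was -0.08 ± 0.20 (adjusted p = 0.844, limma), with a 95% interval of -0.51 to 0.36. Without control replicate 2 it was -0.30 (adjusted p = 0.147, limma), and without control replicate 3 or 4 it was 0.049 or 0.011.

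The spread within groups was unequal among the members. The pooled within-group SD of smtnb was 0.342, at the 94.4 percentile of all probe sets, and that of acta2, 0.259, stood at the 88.1 percentile. The SD of tagln was 0.198 and that of tagln2 0.159, at the 74.3 and 56.1 percentiles. The mylka probe sets had an SD of 0.108 and 0.0837, at the 22.4 and 9.81 percentiles. The members did not share a high or low array. Resected replicate 4 had the highest resected value of tagln, acta2 and the second mylka probe set, and the lowest of tagln2, smtnb and the first mylka probe set.

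**Figure D2:**
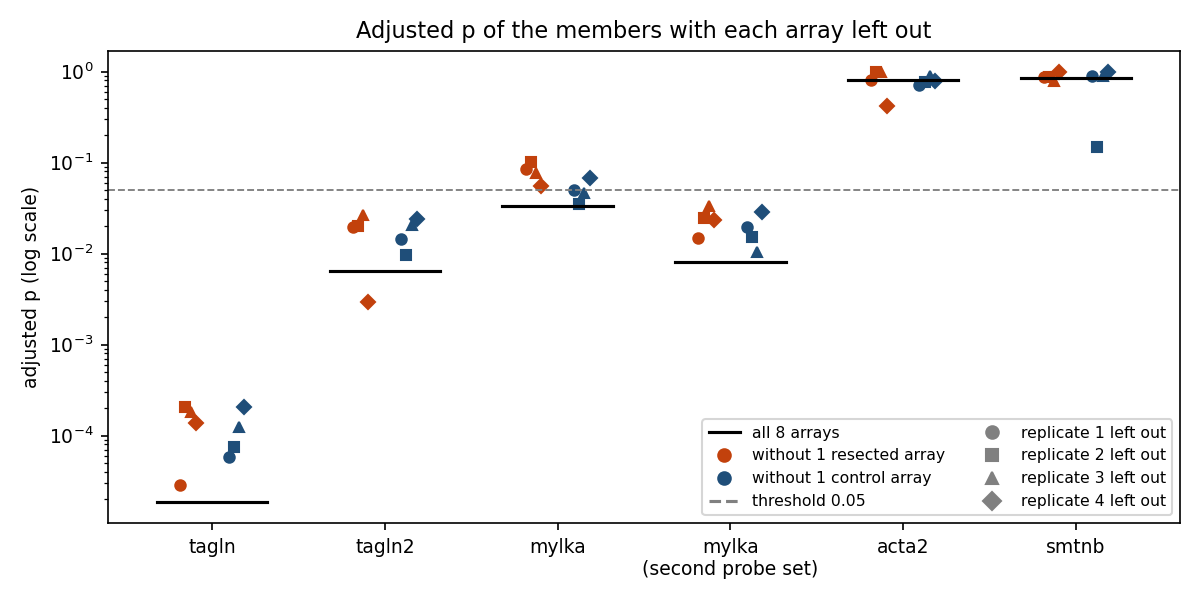
Adjusted p of each member probe set (log scale) with all 8 arrays, as a black line, and with each array left out, as points. Points for tagln, tagln2 and the second mylka probe set stay below the dashed threshold of 0.05, the first mylka probe set crosses it, and acta2 and smtnb stay above it.

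The changes of the members were compared with each other through the per-array differences between probe sets, in exact two-sided permutation tests over the 8 arrays. With 4 arrays against 4, the smallest p such a test can give is 0.0286, and all 10 pairs of genes were compared. The change of tagln exceeded that of acta2 by 1.95 and that of smtnb by 1.96 log2 units. It exceeded those of mylka and tagln2 by 1.51 and 1.24. Each of these 4 differences kept the groups apart and had the smallest p, 0.0286, or 0.0714 adjusted over the 10 pairs, by the exact permutation test. The difference between tagln2 and mylka was 0.27 (p = 0.0571, adjusted p = 0.114, exact permutation test). That between tagln2 and acta2 was 0.72 (p = 0.114, adjusted p = 0.143, exact permutation test). The changes of acta2 and smtnb differed by 0.0039 (p = 0.914, adjusted p = 0.914, exact permutation test). After adjustment no pair passed 0.05.

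A wider list of contractile apparatus genes, not limited to genes specific to smooth muscle, had 15 of 38 symbols measured. Of these, 7 rose, 0 fell and 8 did not pass, with a median change of 0.40, where 5.05% of all genes were called higher and 3% lower. The list was chosen with earlier results of these data known, so its count is only a description. Before adjustment, 9 were higher and 0 lower at a p under 0.05 (limma). The calponin gene cnn3b, whose family binds actin next to tropomyosin, rose by 1.12 ± 0.18 (adjusted p = 0.00558, limma). Without control replicate 1, its lowest array, the cnn3b change was 0.91 (adjusted p = 0.00127, limma). The LIM domain protein csrp1a rose by 0.99 ± 0.10 and tropomyosin tpm1, which lies along the actin filament and is also a heart muscle gene, by 0.86 ± 0.15. The calponin cnn2 rose by 0.63 ± 0.14, a call that was lost without resected replicate 3 or control replicate 3 (adjusted p = 0.0589 and 0.0515, limma). A further 3 increases, named after their values were seen, were in the actin crosslinker flna (0.62 ± 0.07), the calponin cnn3a (0.61 ± 0.11) and the essential myosin light chain myl6 (0.56 ± 0.09).

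The members of this wider list that did not pass went to either side of 0. The tropomyosins tpm3 and tpm4a, named after their values were seen, were at 0.40 ± 0.11 and 0.36 ± 0.10 (adjusted p = 0.0544 and 0.0646, limma), with groups that did not overlap. The regulatory light chain myl9b, the substrate of the kinase, was at 0.08 ± 0.11, with 8.36, 8.48, 8.18 and 8.4 in resected replicates 1 to 4 and 8.02, 8.35, 8.41 and 8.30 in control replicates 1 to 4. The intermediate filament gene desma, also expressed in heart muscle, was at -0.02 ± 0.09. The last 2 genes were named after their values were seen.

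**Figure D3:**
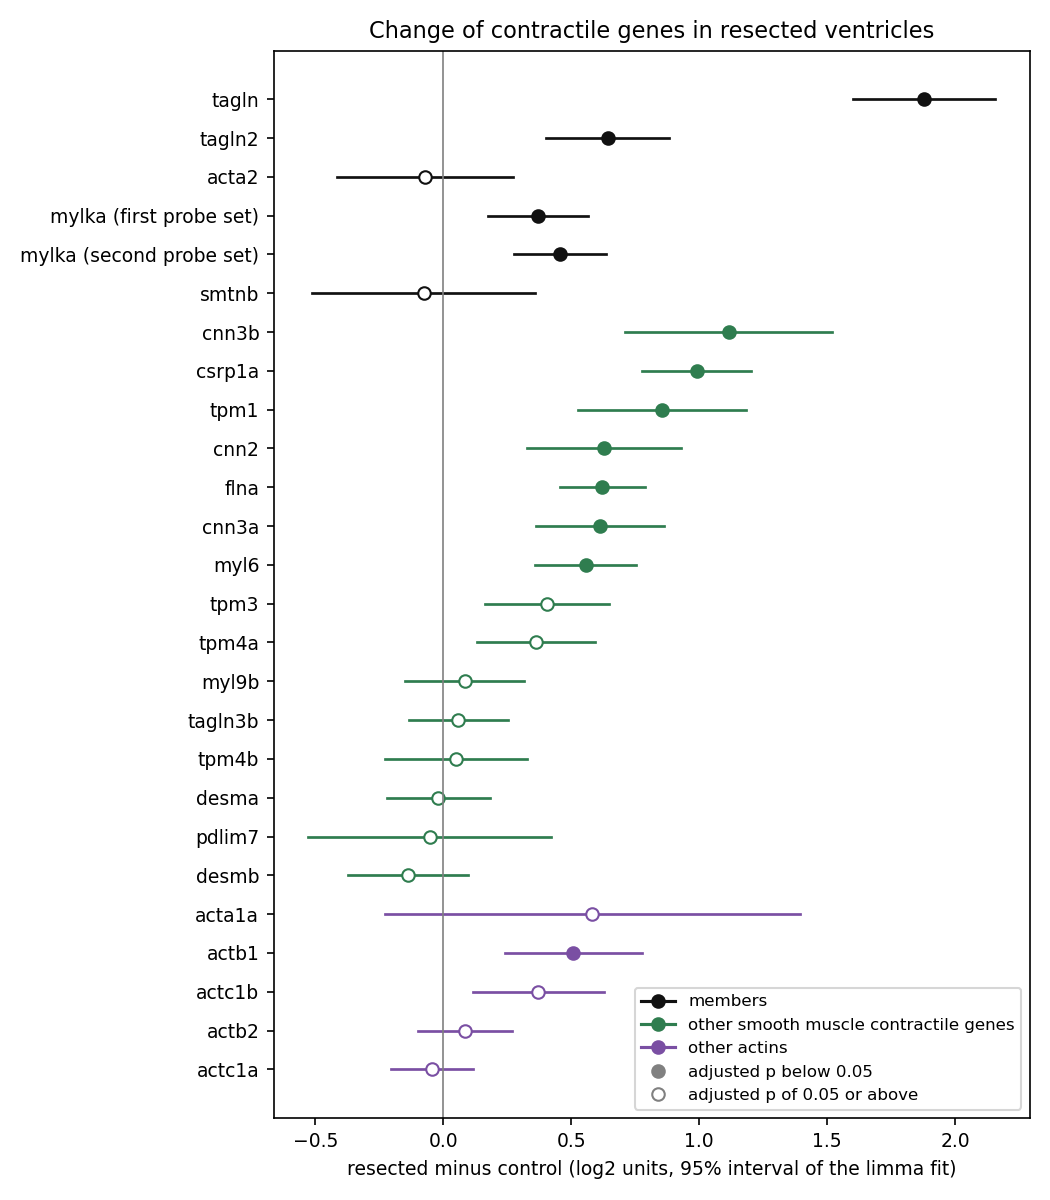
Change in log2 units, resected minus control, with the 95% interval of the limma fit for the 6 member probe sets, 15 genes of the wider contractile list and 5 other actins. The 15 are labelled other smooth muscle contractile genes, though that list is not limited to genes specific to smooth muscle. Filled points passed an adjusted p of 0.05. Among them tagln has the largest value, 1.88, and no filled point lies below 0.

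Among the 5 other actins measured, the cytoplasmic beta actin actb1 rose by 0.51 ± 0.12 (adjusted p = 0.0321, limma), and 4 did not pass. The shares over all genes were 5.05% called higher and 3% called lower. The actb1 call was lost without any single array other than resected replicate 1 and control replicate 2 (adjusted p = 0.0591 to 0.0892, limma). The muscle actin actc1b was at 0.37 ± 0.12 (adjusted p = 0.0837, limma) and acta1a at 0.58 ± 0.37. Without control replicate 2 actc1b was called higher (0.43, adjusted p = 0.0499, limma), and averaged over its 4 probe sets it was at 0.18. For acta1a control replicate 3 was the lowest array, at 11.21, against 12.55 to 13.29 in the other controls, and without it the value was 0.15. The beta actin actb2 was at 0.08 ± 0.08, and the muscle actin actc1a at -0.04 ± 0.07. Values of actc1a, 14.40 to 14.53, lay at or near the highest value of each array (14.43 to 14.64). Quantile normalization holds such values nearly equal between arrays, so the actc1a value says little about a change.

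A list of SRF genes and transcriptional coactivators, not all of them coactivators of SRF, had 3 of 13 genes measured, of which limma called 0 (0 also at an unadjusted p under 0.05). The transcription factor srfa was at -0.11 ± 0.11, its coactivator mrtfab at 0.17 ± 0.11 and the Hippo pathway coactivator yap1 at -0.10 ± 0.13. Of 6 measured genes of transforming growth factor beta signalling, which induces smooth muscle actin in fibroblasts, limma called 0 (before adjustment, 1 was lower and 0 higher at a p under 0.05). Over the whole array 5.05% of genes were called higher and 3% lower. With lists of 3 and 6 genes, 0 calls is close to those shares and is no result about either pathway. The nearest to a call were the receptor tgfbr2b (-0.31 ± 0.13, adjusted p = 0.183) and the inhibitory Smad smad7 (0.27 ± 0.13, adjusted p = 0.245, limma). Without control replicate 2 tgfbr2b was called lower (-0.43, adjusted p = 0.0254, limma).

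Markers of other cell types moved beside the members, and their part in the changes of the members was not tested. All marker lists were chosen with earlier results of these data known, so their counts are only descriptions. Over the whole array 5.05% of genes were called higher and 3% lower. Of 5 measured markers of mural cells, which wrap small vessels, rgs5a rose by 0.90 ± 0.13 (adjusted p = 0.0031, limma). It was at 7.13, 6.83, 7.23 and 7.49 in resected replicates 1 to 4, against 6.29, 6.24, 6.42 and 6.15 in control replicates 1 to 4. The other 4 did not pass and went both ways. The regulator of G protein signalling rgs4 was at 0.51 ± 0.18 (adjusted p = 0.112, limma) and the receptor notch3 at 0.26 ± 0.12 (adjusted p = 0.227). The forkhead transcription factors foxc1a and foxc1b were at -0.50 ± 0.14 and -0.18 ± 0.09 (adjusted p = 0.0615 and 0.25, limma), and foxc1a was called lower without resected replicate 1 or control replicate 4 (adjusted p = 0.0407 and 0.0335, limma). The mean of the list, set to 0 over the controls, was 0.17 to 0.21 in resected and -0.10 to 0.16 in control arrays. Of 12 fibroblast and myofibroblast markers 9 rose and 0 fell, led by postnb, fn1a, col1a2 and col1a1a (3.74, 3.48, 2.39 and 2.25). The 2 other fn1a probe sets did not pass (0.30 and -0.16, adjusted p = 0.111 and 0.351, limma), and with the mean of the probe sets of each gene fn1a was at 1.21. The mean of the 12 fibroblast and myofibroblast markers was 1.53 to 1.66 in resected and -0.07 to 0.14 in control arrays on the same scale. No gene of the elastic outflow tract list, of 6, was measured.

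Of 12 measured fast skeletal muscle markers 7 rose and 0 fell, where 5.05% of all genes were called higher and 3% lower. Those shares stand beside each list below as well. The fast skeletal list had a mean of 0.63 to 1.21 in resected and -0.11 to 0.10 in control arrays. Its changes ran from -0.60 to 2.32, and before adjustment 7 were higher and 1 lower at a p under 0.05 (limma). Of 9 cardiomyocyte markers 2 rose and 0 fell, with a mean of 0.02 to 0.22 in resected and -0.05 to 0.07 in control arrays. The 2 were actn2b (0.85) and myh7 (0.83), while the median change of the cardiomyocyte list was -0.05. Averaged over all 8 arrays, actn2b and myh7 were at 11.29 and 10.35, and the 7 uncalled genes at 11.78 to 14.01. The highest value on each array was 14.43 to 14.64. Whether levels near that maximum hide a change was not tested, so the median does not establish that cardiomyocyte genes stayed level. In atp2a2a (-0.13) and tnnt2a (-0.17), neither of them called, all resected values lay below all control values. Of 6 epicardial markers 4 rose and 0 fell, with a mean of 0.83 to 1.08 in resected and -0.06 to 0.03 in control arrays. All 6 erythrocyte markers rose, with a mean of 1.24 to 2.15 in resected and -0.13 to 0.10 in control arrays. Of 8 macrophage markers 2 rose and 0 fell, with a mean of 0.40 to 1.14 in resected and -0.42 to 0.86 in control arrays. Before adjustment, 6 of the 8 were higher and 0 lower at a p under 0.05 (limma), with changes from 0.52 to 0.90. Of 6 endothelial markers 1 rose and 0 fell, with a mean of -0.23 to -0.02 in resected and -0.13 to 0.15 in control arrays. The marker that rose was cldn5a, with means of 3.90 in resected and 3.48 in control ventricles. The median change of the endothelial list was -0.13, and kdrl was at -0.41 ± 0.15 (adjusted p = 0.126, limma). RNA quality was read from the difference between control probe sets, 3' minus 5'. For actin it was -1.74 to -1.46 in resected and -2.30 to -1.98 in control arrays (p = 0.0286, exact permutation test, adjusted p = 0.0571 over 2 tests). For GAPDH it was 0.80 to 1.05 in resected and 0.77 to 1.07 in control arrays (p = 0.771, exact permutation test). In every array the difference was negative for actin and positive for GAPDH, so actin is an uncertain measure of RNA quality here. The actin control probe sets carry the name acta1 and are annotated to actc1b, and the part of the actin difference between the groups in the results was not tested.

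**Figure D4:**
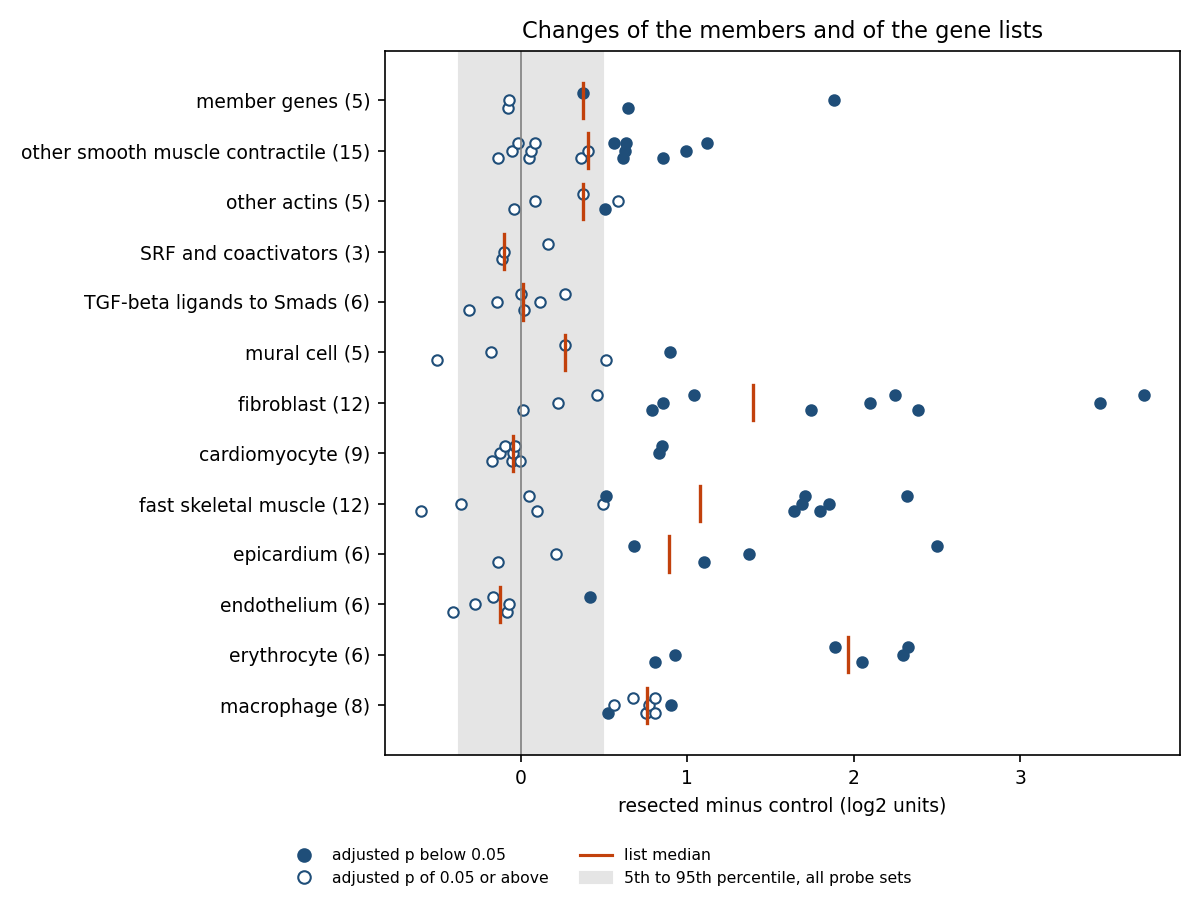
Change in log2 units, resected minus control, of the 5 member genes and of the genes in 12 lists, with the number measured in brackets. Filled points passed an adjusted p of 0.05, short lines are list medians, and the grey band runs from the 5th to the 95th percentile of all probe sets (-0.37 to 0.49). The members tagln and tagln2 lie above the band, and mylka, acta2 and smtnb lie within it.

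The genes whose values over the 8 arrays were most like those of tagln were tfa, clu, mmp14a, pvalb2 and c4, with Pearson's r of 0.993, 0.991, 0.99, 0.989 and 0.987. These r describe 8 arrays that fall into a resected and a control group, so they reflect mainly the difference between the groups. In these 5 genes the change was 2.15 ± 0.16 for tfa, 2.50 ± 0.17 for clu, 1.18 ± 0.11 for mmp14a, 2.32 ± 0.17 for pvalb2 and 1.28 ± 0.11 for c4. They encode the iron carrier transferrin, the secreted chaperone clusterin, a membrane-bound matrix metalloproteinase, a parvalbumin and a complement component. The genes most like acta2 were kdm4c, wdr77, hsd3b7, cbx2 and mrpl47, with r of 0.949, 0.945, 0.944, 0.944 and 0.937. These genes were picked for the highest r among many genes over 8 arrays, and a link between them and acta2 was not tested. All 5 were uncalled, with adjusted p of 0.605 to 0.898 (limma).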

How the data were processed

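The deposited table holds log2 expression values, made by the authors with affy and RMA per the submitters' processing notes, without versions. RMA corrects background, quantile-normalizes and summarises probes, and gives no detection call. All 8 columns matched a sample, and 0 were unused. The 115 control probe sets were left out, which left 15502. Symbols came from the platform annotation, updated by Entrez identifier through a GRCz12tu gene table (10711 of 10795 single-symbol probe sets matched). No coordinates are printed, since the build of the array design was not given. A gene is represented by its probe set with the highest mean.

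The test was that of limma 3.58.1 (R 4.3.3), without a replicate term, and the functions were tested on simulated data. Members, lists and rules were chosen with earlier results of these data known. All members are named, and from each list up to 4 called genes with the largest change, or the 2 with the smallest p. Lists with 10 or fewer measured genes may be named in full, and others are marked as named after their values were seen. The result of 1 further list is not reported here. The 5 most similar genes exclude clone and locus names. The replicates are described as biological, and their number sets the precision. Alternatives were a replicate block, other variance priors, array weights, further normalization or centring, a filter on dim probe sets, means of probe sets, and leaving out each array.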

Additional observations from a re-analysis of the deposited data

Results flagged for a closer look

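In 86 groups of 4 arrays that were checked for a single value apart from the rest (Dixon's criterion), 4 were found, where chance alone marks about 1 group in 20. For the first mylka probe set, control replicate 4 was at 6.15, below the other control arrays at 6.42 to 6.45. For cnn3b, control replicate 1 was at 5.14, below the others at 5.92 to 6.03. For actc1b, resected replicate 3 was at 12.87, below the others at 13.09 to 13.13. For rgs4, control replicate 2 was at 4.87, below the others at 5.45 to 5.54.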

How the results depend on the processing

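The direction and call of tagln, tagln2 and the second mylka probe set were kept under all alternatives run, leaving out each array included. Same-numbered resected and control arrays had deviations correlated at 0.121, 0.137, -0.00838 and -0.16. Resected replicates 1 and 2 were most like the control array of their own number, and resected replicates 3 and 4 were not. These values do not settle whether replicate numbers pair the pools. With the replicate block the first mylka probe set stayed at 0.37 (adjusted p = 0.0552, limma), 2 member genes were higher and 0 lower, and 714 probe sets were higher and 312 lower, against 664 and 398 without it. With each array left out, mylka ranged from 0.30 to 0.40, acta2 from -0.20 to 0.040, smtnb from -0.30 to 0.049, desma from -0.056 to 0.047 and tpm4b from -0.0042 to 0.17. The member genes called higher were then 2 or 3, and the genes of the wider contractile list 6 to 8 (9 with the mean of each gene's probe sets). Probe sets called higher ranged from 394 to 951, and fell to 394, 433 and 409 without resected replicate 2 or 3 or control replicate 4. Those called lower ranged from 151 to 657: 213, 151 and 171 without resected replicates 1, 2 and 3, and 657, 247 and 233 without control replicates 2, 3 and 4. The cause was not tested. Uncalled values turned sign for desma with array weights (0.0072) and for actc1a with further quantile normalization (0.023). Calls were gained by tpm3 (further quantile normalization, the filter on dim probe sets, means of probe sets, and leaving out resected replicate 3 or control replicate 2), tpm4b (means of probe sets), actc1b and, lower, tgfbr2b (both without control replicate 2), and, lower, foxc1a (without resected replicate 1 or control replicate 4).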

Other observations

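The tropomyosin gene tpm4b, named after its values were seen, had probe sets that disagreed. The probe set with the higher mean changed by 0.05 ± 0.12, with 5.20 ± 0.11 in resected and 5.15 ± 0.25 in control ventricles (SD, n = 4 each; adjusted p = 0.84, limma). The other rose by 0.94 ± 0.11 at a low level, with 4.11 ± 0.14 in resected and 3.16 ± 0.17 in control ventricles (SD, n = 4 each; adjusted p = 0.000765, limma). The pair of csrp1a probe sets rose alike, by 0.99 ± 0.10 and 1.03 ± 0.12.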
